A study of Mus musculus with 8 samples.

Results

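Input RNA and N6-methyladenosine (m6A) peaks were compared between Alkbh5-/- and wild-type mice in the cells labelled RO, which by the series title are round spermatids. The comparison took every gene with 100 or more counts in either of the RO input libraries, 13181 of the 53465 genes of the count table, and all peaks of the RO lists, 9418 in wild type and 8846 in the knockout. The peak lists pair 6886 of the 13181 genes with a symbol, and statements on named genes, families and functions rest on these. All libraries came from spermatogenic cells of C57BL/6 testes, taken at 12 weeks of age from either wild-type or Alkbh5-/- mice. The labels describe the allele no further, so that effects of its loss in the RO cells, in other testis cells and at earlier stages cannot be told apart. How the cells were separated and how many animals were pooled is not given in the sources used here. Each genotype had 1 input library and 1 immunoprecipitated library of RO cells. With 1 library a side nothing below has a replicate check, no test was made, and each value describes these libraries. The libraries of the cells labelled PA, pachytene spermatocytes by the title, are given beside the RO values.

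m6A is a methyl mark that a complex around METTL3 and METTL14 places on adenosines of RNA, often within the letters GGACT, that proteins of the YTH family bind, and that the demethylases ALKBH5 and FTO can remove. ALKBH5 is abundant in testis, and male mice without it have few normal sperm. Round spermatids are haploid cells that have finished meiosis. They begin to build the acrosome and the tail, and they store messages such as those for protamines, the small basic proteins that later replace histones, for use when the nucleus condenses and transcription has ended.

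The input libraries held 12084838 counts in wild type and 10152198 in the knockout. Ratios are given as log2 of knockout over wild type after TMM scaling, which sets libraries on a common scale from genes of moderate ratio, with a prior count of 2. A gene was called higher or lower where it differed at least 2-fold. A gene with fewer than 100 counts in 1 RO library entered only through the other, where it was higher. For such genes the minimum itself favours a large ratio. Of all 13181 genes 12.1% were called higher and 13.3% lower, and of the 6886 genes with a symbol 10.02% and 12.5%. These shares are the background against which the counts of each group are to be read. Scaling by total counts raised every log2 ratio by 0.18 and turned the split of all calls from 1594 higher and 1747 lower to 2055 and 1291, or from 47.7% to 61.4% higher. The spread of the ratios depended on depth. At a summed count of 100 to 200 the robust SD was 1.93, against 0.25 from counting alone, and at 6400 or more it was 0.53 against 0.03. The exact 95% intervals given in brackets cover counting error only, so the true uncertainty is wider.

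**Figure D1:**
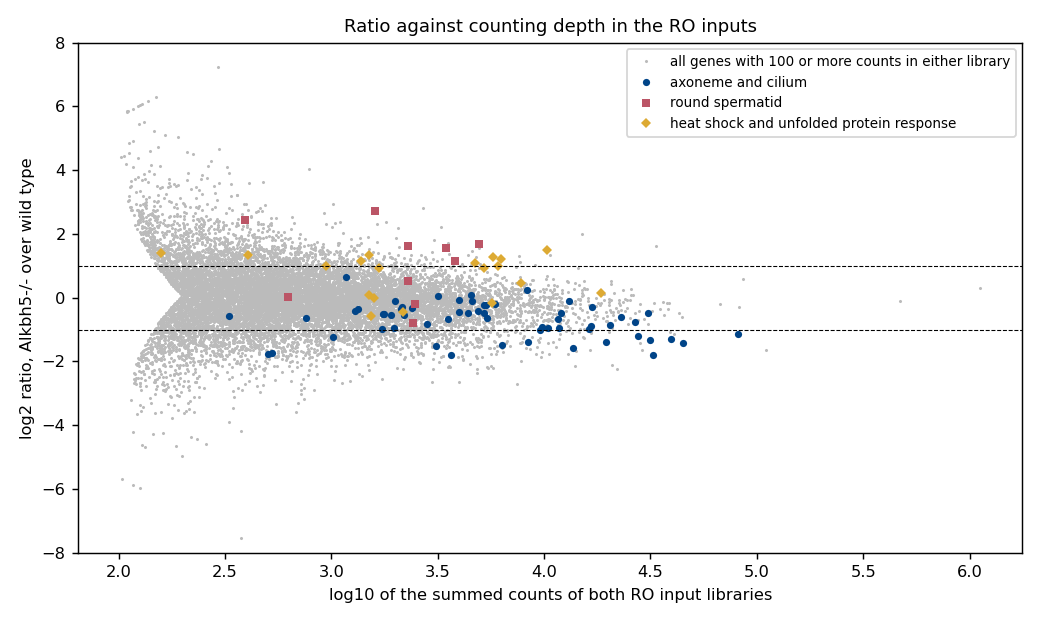
Each point is a gene with 100 or more counts in either RO input library; the horizontal axis is log10 of the summed counts and the vertical axis the log2 ratio of knockout over wild type, with dashed lines at 2-fold. The cloud narrows with depth, from a robust SD of 1.93 at 100 to 200 summed counts to 0.53 at 6400 or more, and the axoneme genes lie mostly below 0, also at the deepest counts.

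The stage labels were checked on marker genes. Of 10 round spermatid markers with a symbol, 9 in wild type and 10 in the knockout were above 0 in RO over PA, with medians of 1.02 and 0.83 on the log2 scale. Of 7 pachytene markers, 3 in wild type and 4 in the knockout were above 0, with medians of −0.23 and 0.17. Of the 10 spermatid markers 5 in wild type and 3 in the knockout were at least 2-fold higher in RO. None of the 7 pachytene markers was 2-fold lower in RO in either genotype. The RO libraries thus stood above the PA libraries in spermatid messages, whereas pachytene messages set the fractions apart little in either genotype. The peak lists pair no identifier with Alkbh5, so the sources used here do not name the row of the targeted gene in the count table. The genotype labels were therefore not checked on that gene by name. The lowest ratio of all genes belonged to ENSMUSG00000042650, which the lists do not pair with a symbol. It had 378 counts in wild-type RO, 0 in knockout RO, 360 in wild-type PA and 1 in knockout PA, and was at least 120-fold lower in knockout RO when 3 counts are taken as the limit for a library at 0. In all, 14 of the 13181 genes were listed at 0 in an RO library, 4 of them in the knockout.

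Markers of other testis cells were counted in the same libraries. Of 8 endothelial markers 7 were called higher in the knockout and none lower, with a median of 1.83. Cd93, a receptor of blood vessel cells, had 20 counts in wild-type RO, 311 in knockout RO, 347 in wild-type PA and 540 in knockout PA. Eng, a co-receptor for TGF-beta family ligands, had 58, 429, 111 and 269 counts in the same order, and Kdr, a receptor for vascular endothelial growth factor, had 89, 427, 372 and 355. For all 3 genes the wild-type RO library was the lowest of the 4 libraries. All 3 had fewer than 100 counts there and passed the minimum only through the knockout RO library. Of the 8 markers 4 had 100 counts in both RO libraries, so the 7 calls and the median of 1.83 rest in part on that minimum. The summed level of the 8 markers was 118 CPM (depth-scaled input counts) in wild-type RO, 350 in knockout RO, 242 in wild-type PA and 331 in knockout PA. The other cell types moved less. Of 9 Sertoli cell markers only Kitl was called (337 and 779 counts, 1.28), and their sum was 710 and 779 CPM. Of 5 Leydig cell markers Hsd3b1, a steroid dehydrogenase, was called lower (297 and 78 counts, −1.83), with sums of 161 and 125 CPM. None of 3 myoid and 3 spermatogonial markers was called, with sums of 510 and 460 CPM for myoid and 41.3 and 51.1 CPM for spermatogonial markers. Of 2 macrophage markers Csf1r was called higher (79 and 236 counts, 1.63), and their sum was 60.3 and 82.0 CPM. The erythroid list had no member with a symbol. In such bulk libraries fewer cells of a type and less RNA per cell cannot be told apart, and the part of the endothelial shift in the higher gene groups below was not tested.

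**Figure D2:**
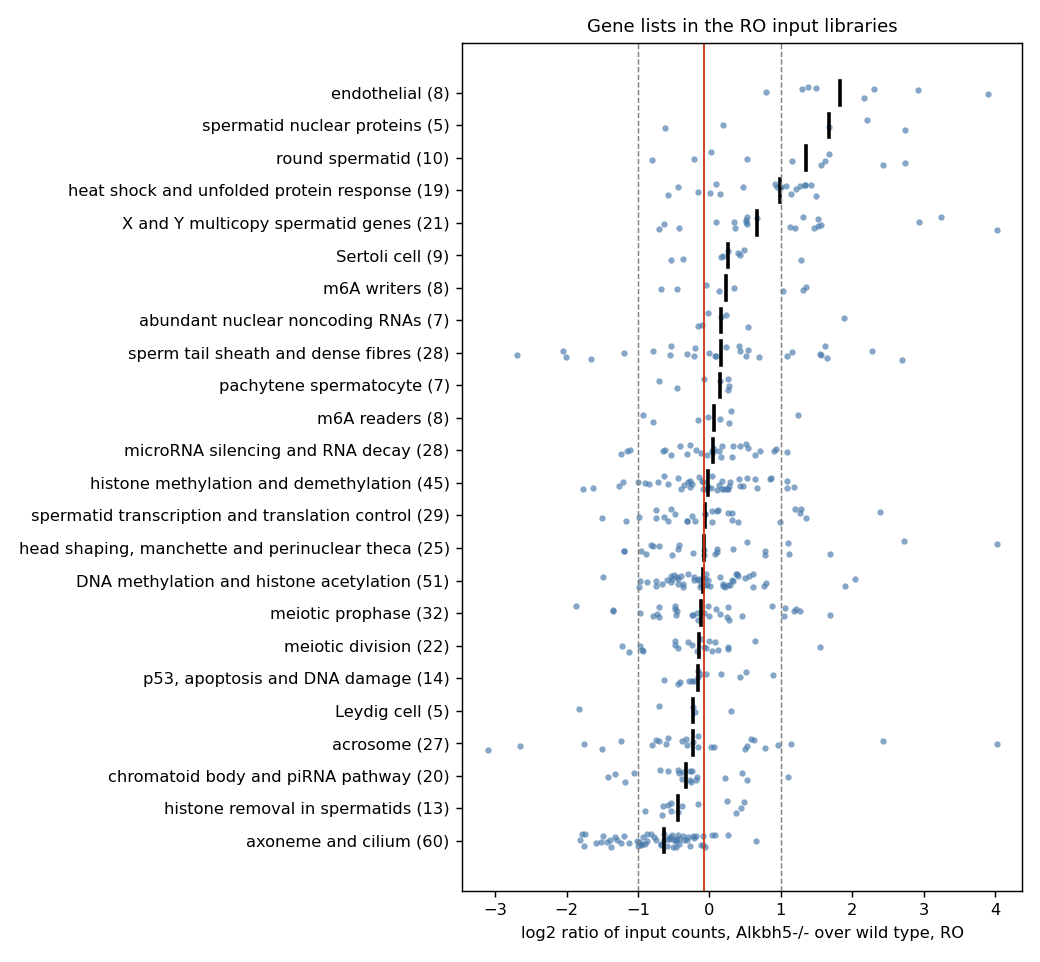
Each point is a gene of the list named on the left (number of genes in brackets) at its log2 ratio of RO input counts, knockout over wild type; black bars are list medians, the red line the median of all genes with a symbol (−0.08) and dashed lines 2-fold. Endothelial and spermatid lists lie to the right, with medians of 1.83, 1.68 and 1.36, and the axoneme list to the left, with a median of −0.63.

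Messages for the late steps of spermatid differentiation stood higher in the knockout RO input. Of 10 round spermatid markers 6 were called higher and none lower, with a median of 1.36, where 10.02% of all genes with a symbol were called higher. Tnp2 encodes a transition protein, which occupies DNA between the removal of histones and the arrival of protamines. It had 218 counts in wild-type RO, 1391 in knockout RO, 162 in wild-type PA and 599 in knockout PA, a log2 ratio of 2.73 (2.54 to 2.96) in RO and 1.99 in PA. H1fnt, a linker histone of condensing spermatids, had 381, 1675, 119 and 1236 counts in the same order, a ratio of 2.20 (2.05 to 2.37) in RO and 3.47 in PA. Prm2, a protamine, had 1226, 3730, 947 and 2053 counts and a ratio of 1.68 (1.58 to 1.77). For these 3 genes the knockout RO library was the highest of the 4 and both knockout libraries lay above both wild-type libraries. Of 5 measured genes in the list of spermatid nuclear proteins these 3 were called higher and none lower, with a median of 1.68. The other two were not called. Prm3, which despite its name is a cytoplasmic protein encoded in the protamine gene cluster, had 806 and 498 counts (−0.62), and Spata20 had 1254 and 1359 (0.19). The list has 18 genes, of which only these 5 have a symbol.

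Factors that act on histones ahead of that replacement did not stand out. None of 13 genes of histone removal was called in either direction, and their median was −0.44. Chd5, a chromatin remodeller of spermatids, had 11500 and 8058 counts (−0.44), and Brdt, the testis bromodomain protein that reads acetylated histones, had 5592 and 3649 (−0.54). The lowest were Dot1l, a histone methyltransferase (5514 and 2802, −0.90), and Ep400 (10845 and 6498, −0.67). The highest was Cdyl with 1056 and 1399 counts (0.48). The removal factors lay between −0.90 and 0.48. Prm3 (−0.62) and Spata20 (0.19) of the nuclear protein list lay within that range. Tnp2, H1fnt and Prm2, the members of that list called higher, lay at 1.68 or more.

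Genes of the sperm tail went in both directions. Of 28 genes of the sheath, dense fibres and membrane channels of the tail, 8 were called higher and 5 lower, with a median of 0.16. These are 28.6% and 17.9%, against 10.02% and 12.5% of all genes with a symbol. The higher ones included genes of the fibrous sheath, the outer dense fibres and energy supply. Odf1, the main protein of the outer dense fibres, had 582 counts in wild-type RO, 1705 in knockout RO, 321 in wild-type PA and 949 in knockout PA (1.62 in RO, 1.67 in PA). Akap4, the X-linked scaffold of the fibrous sheath, had 903, 2546, 293 and 1270 (1.57 and 2.22). Smcp, a cysteine-rich protein of the mitochondrial capsule, had 1226, 2591, 1046 and 1071 counts, so that its ratio was 1.15 in RO and 0.15 in PA. The others were Akap14 (16 and 109 RO counts, 2.69), Aldoart2 (56 and 265, 2.27), Ropn1, a ropporin of the fibrous sheath (147 and 441, 1.64), Fscb (220 and 617, 1.55) and Gykl1 (309 and 627, 1.09). The lower ones included proteins of the annulus and of the calcium channel that sperm need for hyperactive swimming. Sept12, a septin of the annulus, had 6518, 954, 6003 and 1159 counts in wild-type RO, knockout RO, wild-type PA and knockout PA, and its RO ratio of −2.70 (−2.80 to −2.60) was the lowest of all 1983 protein-coding genes with a symbol and 1000 counts in the higher RO library. Slc26a8, an anion transporter of the annulus, had 2607 and 614 RO counts (−2.01). Catsperg1 and Catsper2, subunits of the CatSper calcium channel, had 10911 and 3292 (−1.66) and 3863 and 1596 (−1.20). Odf4, named for the outer dense fibres, completed the 5 with 2118 and 483 counts (−2.06), the opposite of Odf1. The fibrous sheath genes Fsip2 (−0.20) and Txndc2 (−0.21) were not called, so members of one structure did not share a direction. The channel subunits Catsper1 (1502 and 823, −0.79) and Catsper4 (2291 and 1491, −0.55) lay below 0 without reaching 2-fold.

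Axoneme and cilium genes, which build the microtubule core of the tail, were lower. Of 60 genes 16 were called lower and none higher, 56 lay below 0, and the median was −0.63 in RO and −0.57 in PA, against a background of 12.5% called lower. With total counts the median was −0.46 and 14 were called lower. Dnah2, a heavy chain of inner-arm dynein, had 25670 counts in wild-type RO, 6965 in knockout RO, 22966 in wild-type PA and 6660 in knockout PA, a ratio of −1.81 (−1.85 to −1.77) in RO. Dnah17, an outer-arm heavy chain of sperm, had 33206, 11700, 27966 and 11825 (−1.43). Dnah8, another outer-arm chain, had 56995 and 24806 counts in RO (−1.13). Both knockout libraries lay below both wild-type libraries for Dnah2 and Dnah17. Further called genes were Dnah1 (−1.59), Cfap46 of the central pair (−1.39), Cfap70 (−1.38), the intraflagellar transport gene Ift140 (−1.49), the centriole appendage gene Cep164 (−1.79), and the assembly factors Dnaaf2 (−1.75) and Zmynd10 (−1.52), with which dynein arms are put together in the cytoplasm. The 4 genes above 0 were Cfap53 (469 and 699 counts, 0.65), Wdr60 (0.26), Kif3b (0.07) and Ift74 (0.04). By symbol, 7 of 18 dynein genes were called lower and 1 higher (median −0.91), the higher one being the light chain Dynll2 (395 and 786, 1.06). Of 14 Cfap genes 4 were called lower and none higher (median −0.57). These genes are deep and long. Among protein-coding genes with 1000 counts in the higher library 3.18% were called higher and 13.1% lower, so the background at that depth was itself tilted to lower calls.

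**Figure D3:**
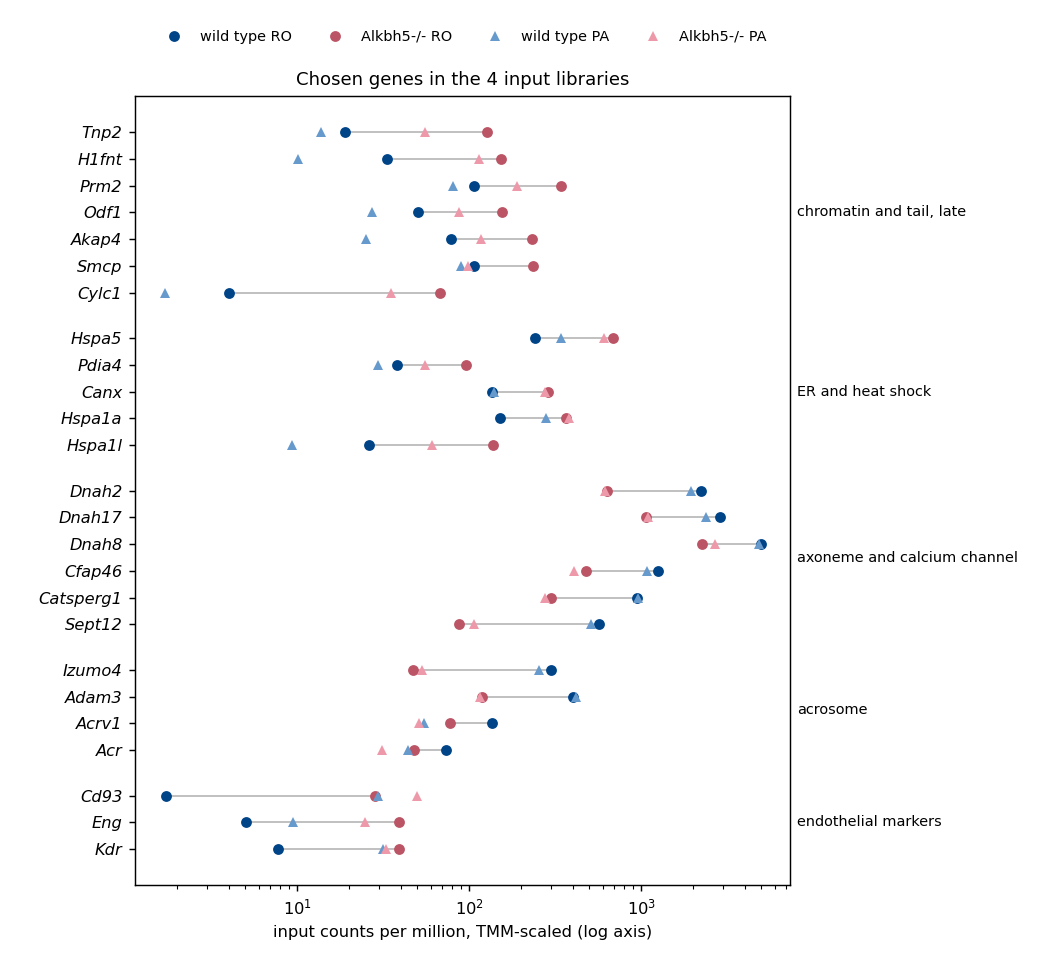
Input levels of 25 genes in the 4 libraries, in TMM-scaled CPM on a log axis; circles are RO and triangles PA, and a grey line joins the RO values of the genotypes. Levels of different genes are not set against each other, because they are not per length. Knockout RO exceeds wild-type RO for Tnp2, Prm2, Akap4 and Hspa5 and lies below it for Dnah2, Sept12, Izumo4 and Adam3; Cd93, Eng and Kdr are lowest in wild-type RO.

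Acrosome genes went in both directions. The acrosome is the vesicle over the sperm head that holds enzymes for passing the egg coat. Of 27 genes 3 were called higher (11.1%) and 5 lower (18.5%), with a median of −0.23. Of all genes with a symbol 10.02% were called higher and 12.5% lower, so the numbers of calls do not set this group apart. Prss21, a membrane serine protease, had 314 counts in wild-type RO and 33 in knockout RO (−3.10), and Izumo4 had 3450 and 519 (−2.66). Adam3, a surface protein needed for sperm to enter the oviduct and bind the egg coat, had 4632 and 1308 (−1.75) in RO and 4880 and 1248 in PA. Gba2 (−1.50) and Spata16 (−1.24) were the other 2 lower genes. Acr, the protease acrosin, had 845 and 525 counts (−0.61), and Acrv1 had 1563 and 850 (−0.81). The 3 higher genes were Cylc1, Tssk2, a testis serine kinase (63 and 332, 2.43), and Hyal5, a hyaluronidase (187 and 395, 1.14). By symbol, 22 of 27 Adam and Adamts genes lay above 0, with a median of 0.55, 4 called higher and 2 lower, so that Adam3 ran against most of its family.

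Genes of the perinuclear theca, the shell between acrosome and nucleus, were among those called higher. Of 25 genes of head shaping, manchette and theca 5 were called higher and 2 lower, with a median of −0.07 that was 0.11 with total counts. Cylc1, the X-linked theca protein cylicin, had 46 counts in wild-type RO, 743 in knockout RO, 20 in wild-type PA and 378 in knockout PA, a ratio of 4.03 (3.66 to 4.55) in RO and 4.22 in PA. Its autosomal partner Cylc2 had 1263, 2069, 764 and 1296 (0.78 and 0.88). The other 4 called higher were all testis actin-related genes: Actrt2 (63 and 407, 2.72), Actl7a (89 and 276, 1.68), Actl9 (99 and 207, 1.12) and Actrt3 (60 and 125, 1.10). Actl7b, of the same family, had 965 and 1317 counts (0.52). All 5 genes called higher had fewer than 100 counts in wild-type RO and passed the minimum only through the knockout RO library. Of the 25 genes 20 had 100 counts in both RO libraries. Both genes called lower act at the centrosome, Cntrob (2202 and 913, −1.20) and Cep131 (854 and 355, −1.19). Manchette genes such as Hook1 (12093 and 8514, −0.43) and Kif3a (2874 and 2033, −0.43) lay below 0 but within 2-fold.

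Promoters of these late genes are shown because several hold a match to the element that CREM, an activator of spermatid genes, and related factors bind. The letters TGACNTCA, on either strand, occurred in 8.83% of the 32851 RefSeq promoter windows (GRCm38.p6, 250 bases before to 50 after the start site), or for 2708 of the 27025 genes with a window. Of 9 round spermatid markers with a window 6 held a match, as did 7 of 22 tail genes, 6 of 21 head and theca genes, 6 of 19 acrosome genes and 3 of 52 axoneme genes. Of the 6 matched markers Tssk2, Akap4 and Smcp were called higher, and Tssk1, Actl7b and Txndc2 were not called. Among spermatid nuclear proteins 2 of 4 with a window held a match, Prm3 and Spata20, and neither was called. Matches upstream of the start are given for 4 genes, chosen among those called higher, on the strand of the gene, with the matched letters in capitals. The windows are chrX:7067465-7067502 (+), chr16:34651094-34651131 (+), chr16:17898564-17898601 (+) and chrX:111110371-111110408 (+).
Akap4: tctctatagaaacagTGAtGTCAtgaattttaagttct
Ropn1: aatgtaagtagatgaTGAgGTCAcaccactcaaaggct
Tssk2: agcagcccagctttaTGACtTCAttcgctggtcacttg
Cylc1: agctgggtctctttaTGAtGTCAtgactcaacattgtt
The matches begin 35, 102, 58 and 32 bases before the start of Akap4, Ropn1, Tssk2 and Cylc1. A match to letters is a description of the window and shows no binding.

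Chaperone genes of the endoplasmic reticulum and of the heat shock response were higher. In the unfolded protein response the sensors encoded by Ern1, Eif2ak3 and Atf6 detect misfolded protein in the endoplasmic reticulum and raise its chaperones. Of 19 genes of this response and of heat shock 8 were called higher and none lower, with a median of 0.99 in RO and 0.18 in PA, against 10.02% called higher in the background. Hspa5, the main chaperone of the endoplasmic reticulum, had 2786 counts in wild-type RO, 7482 in knockout RO, 4010 in wild-type PA and 6600 in knockout PA, a ratio of 1.50 (1.43 to 1.56) in RO and 0.84 in PA. Pdia4, a disulfide isomerase, had 439, 1057, 345 and 602 (1.34 and 0.92), and Canx, the lectin chaperone calnexin, had 1568, 3152, 1644 and 3004 (1.08 and 0.99). The knockout libraries were above the wild-type libraries for each of these 3 genes. The heat-inducible genes Hspa1a and Hspa1b had 1749 and 4004 (1.27) and 1960 and 4305 (1.21) RO counts, but they are near-identical copies between which reads may have been split. Among the sensors Ern1 (447 and 939, 1.14) and Eif2ak3 (119 and 289, 1.34) were called and Atf6 was not (748 and 760, 0.09). Xbp1, whose message Ern1 splices, had 44 and 115 counts in RO (1.42) but 242 and 206 in PA (−0.11). Calr, calreticulin (2101 and 3986 counts), and the mitochondrial chaperone gene Hspd1 (326 and 619, 0.99) fell just short of the limit, as did Hsp90ab1 (0.95) and Pdia3 (0.92). The translation-side factor Atf4 was lowest of the list (943 and 601, −0.58). With total counts 12 of the 19 were called higher. The endothelial markers were higher in RO too (median 1.83), and in PA, where this list had a median of 0.18, their median was 0.40.

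The promoters of 4 endoplasmic reticulum chaperones hold a sequence that is rare among promoters, shown here for that reason. The ER stress element, letters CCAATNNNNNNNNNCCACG on either strand, occurred in 39 of the 32851 promoter windows (0.119%), or for 37 of 27025 genes, and in those of 4 of 15 listed genes with a window: Hspa5, Hsp90b1, Calr and Canx. They are given on the strand of the gene, with the matched letters in capitals, from chr2:34772010-34772058 (+), chr10:86705518-86705671 (−), chr8:84847060-84847108 (−) and chr11:50325785-50325833 (−).
Hspa5: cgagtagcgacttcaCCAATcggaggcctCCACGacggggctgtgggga
Hsp90b1: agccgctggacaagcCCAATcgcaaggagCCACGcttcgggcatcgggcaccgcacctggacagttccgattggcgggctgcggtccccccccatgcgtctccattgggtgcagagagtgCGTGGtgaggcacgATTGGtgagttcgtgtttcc
Calr: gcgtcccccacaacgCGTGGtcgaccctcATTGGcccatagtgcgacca
Canx: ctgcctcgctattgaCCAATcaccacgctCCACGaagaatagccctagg
Of the 4 genes Hspa5 and Canx were called higher, Calr lay at the limit, and Hsp90b1 had 3350 and 4427 counts (0.47). Hsp90b1 holds the element in both orientations.

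Heat shock genes of the germ line itself differed between members. Hspa1l, a spermatid Hsp70 gene, had 302 counts in wild-type RO, 1510 in knockout RO, 109 in wild-type PA and 655 in knockout PA, a ratio of 2.39 (2.21 to 2.58). Hspa2, the Hsp70 gene of meiotic cells, had 2973, 1677, 3023 and 1557 counts, a ratio of −0.75. Hspa1l is one of 29 genes of spermatid transcription and translation control, of which 5 were called higher and 2 lower. These are 17.2% and 6.90%, against 10.02% and 12.5% of all genes with a symbol. The others called higher were Zfp819 (106 and 261, 1.36), Spz1 (535 and 1237, 1.28), Sox5 (1457 and 3355, 1.27) and the X-linked Taf7l, a subunit of the general transcription factor TFIID (446 and 980, 1.20). Both genes called lower encode Y-box proteins, which hold spermatid messages in an untranslated store: Ybx2 had 4351 counts in wild-type RO, 1832 in knockout RO, 5507 in wild-type PA and 1415 in knockout PA (−1.18 and −1.84), and Ybx3 had 3766, 1266, 4269 and 1362 (−1.50 and −1.53). Both were lower in each knockout library than in each wild-type library.

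Genes of the X chromosome, which is silenced in meiosis and partly reactivated in spermatids, were called higher more often than autosomal genes. Of 163 X-linked genes with a symbol 63 were called higher (38.7%) and 4 lower, with a median of 0.69, whereas of 6707 autosomal genes 9.30% were called higher and 12.7% lower, with a median of −0.09. Medians of single autosomes lay between −0.24 and 0.06. Among X-linked genes with 300 counts or more in the higher library 33 of 97 were called higher and 0 lower, so the shift was not limited to sparse genes. The median in PA was 0.44 for the same genes. Usp26, an X-linked deubiquitinase of the testis, had 122 counts in wild-type RO, 901 in knockout RO, 93 in wild-type PA and 555 in knockout PA (2.94 in RO), and Tex13c1 had 23, 223, 14 and 119 (3.24). X-linked genes outside the germ line lists were higher too, such as Fmr1, an RNA-binding protein, with 675 and 1520 RO counts (1.24). Xist, the RNA that coats an inactive X in female cells, had 61, 220, 42 and 116 counts in the order above (1.89 in RO). The 4 X-linked genes called lower, among them Rnf138rt1, Gja6 and Tbx22, each had at most 196 counts in either library. On the Y chromosome 3 of 6 genes were called higher, the zinc finger genes Zfy1 (113 and 312, 1.52) and Zfy2 (188 and 499, 1.47), which resemble each other, and Usp9y (547 and 1135, 1.12). Kdm5d (361 and 255, −0.43) and Eif2s3y (736 and 746, 0.09) were not. Of 21 genes in the list of X- and Y-linked and multicopy spermatid genes 10 were called higher and none lower (median 0.67 in RO, 1.45 in PA). Akap4, Cylc1 and Taf7l stand in this list and in another, so the lists do not count as separate evidence.

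**Figure D4:**
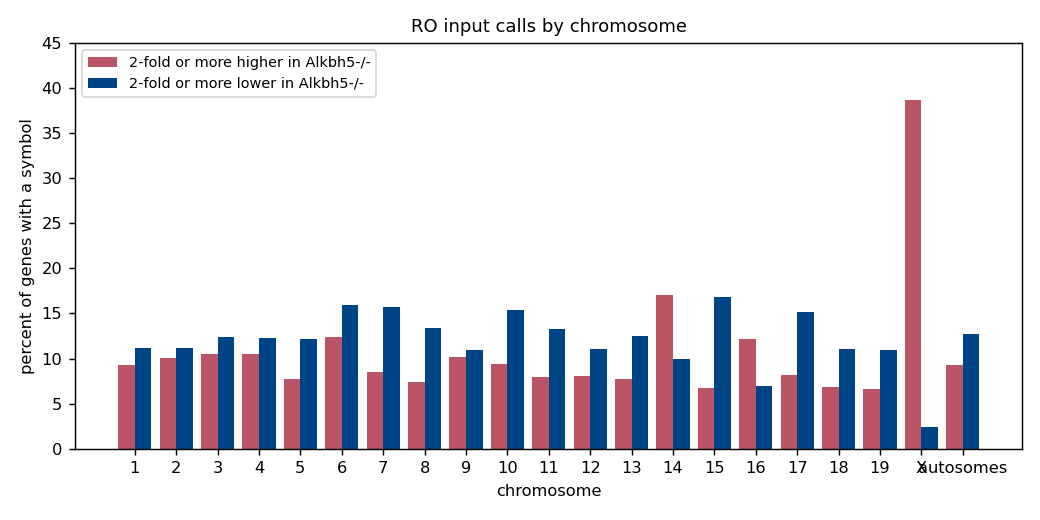
For each chromosome with 100 or more measured genes with a symbol, bars give the percent of genes called at least 2-fold higher (red) or lower (blue) in the knockout RO input. X reaches 38.7% higher and 2.45% lower; chromosome 14, with 17.1%, is the highest autosome.

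Chromosome 14 was the autosome with the largest share of genes called higher, 50 of 293 (17.1%). Its 41 predicted genes (symbols beginning with Gm) accounted for 25 of these, with a median of 1.18 in RO and 1.25 in PA. The other 252 genes of the chromosome were called higher in 9.92% and had a median of −0.04. Predicted genes of the other autosomes went the opposite way, with 42 of 440 called higher, 131 lower and a median of −0.41. Gm3676, with 31 and 260 counts, Gm8247 (23 and 208) and Gm8232 (61 and 381) were examples on chromosome 14, chosen after their values were seen. Many predicted genes are near-identical copies, and their counts depend on how reads shared between copies were assigned, which is not given in the sources used here.

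Part of the m6A machinery was measured by name in the same libraries. Of 13 listed writer genes 8 have a symbol, and Mettl3 and Mettl14 are not among them. Of the 8 writers with a symbol 3 were called higher and none lower, with a median of 0.23. The higher calls are 37.5%, against 10.02% of all genes with a symbol. Zc3h13, which anchors the writer complex in the nucleus, had 3111 counts in wild-type RO, 7526 in knockout RO, 3799 in wild-type PA and 6200 in knockout PA (1.35 in RO, 0.82 in PA). Wtap, a regulatory subunit, had 140, 334, 229 and 383 (1.31), and Mettl16, a separate methyltransferase, had 253, 494, 546 and 590 (1.03). Rbm15, which brings the complex to its targets, had 1709 and 1573 RO counts (−0.05), Virma 1376 and 1654 (0.34), and Rbm15b 593 and 351 (−0.68). The other demethylase gene, Fto, had 2926 and 3504 counts in RO (0.33) and 1675 and 3860 in PA (1.32), so it was called in PA and not in RO. That difference was not tested. Of 15 listed readers 8 have a symbol, and of these only Fmr1 was called. Ythdc1, the nuclear reader, had 3533 and 4046 counts (0.27), Ythdf2, which directs messages to decay, 274 and 322 (0.30), and Meioc, a meiotic partner of the reader YTHDC2, 3645 and 2003 (−0.79). Prrc2a, at 10981 and 5498 (−0.93), was the lowest.

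RNA storage genes lay mostly below 0 and RNA decay genes on both sides of it. Of 20 genes of the chromatoid body, a granule where spermatids gather piRNA proteins and decay factors, 4 were called lower and 1 higher, with a median of −0.32. Tdrd6, a tudor scaffold of the granule, had 20795 counts in wild-type RO, 7366 in knockout RO, 22648 in wild-type PA and 6270 in knockout PA (−1.43 and −1.74). Upf1, the helicase of nonsense-mediated decay, had 6800, 2582, 6506 and 2887 (−1.32 and −1.05), and Tdrd5 had 2351 and 988 RO counts (−1.18). The fourth was Exd1 (985 and 448, −1.06), and the higher gene was Btbd18, a nuclear activator of piRNA loci (118 and 244, 1.11). Of the 20 genes 16 lay below 0. Of 28 microRNA and decay genes 1 was called higher and 3 lower, with a median of 0.05 and 16 above 0, and these lower calls are no more frequent than the 12.5% of all genes with a symbol. The lower ones were Dcp1b (−1.24), Exosc10 (−1.15) and Pan2 (−1.11), which act in decapping, the nuclear exosome and deadenylation. The decapping enzyme Dcp2 (334 and 494, 0.63) and its partner Dcp1a (294 and 409, 0.55) lay above 0, and Zfp36l1, which recruits deadenylases to AU-rich messages, was called higher (408 and 828, 1.09).

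Meiotic genes, which precede this stage, showed no common direction. Of 32 prophase genes 6 were called higher and 3 lower, with a median of −0.12 that was 0.06 with total counts. These are 18.75% and 9.38%, against 10.02% and 12.5% of all genes with a symbol. The lower ones were Cntd1, which limits and matures crossovers (1928 and 499, −1.87), and Ccdc155 and Majin (−1.35 each), which tether telomeres to the nuclear envelope. The higher ones were Rad51ap2 (1.69), Brip1 (1.27), Atm, the kinase of the DNA damage response (936 and 2056, 1.21), Prdm9, which places recombination sites (1.19), Exo1 (1.06) and H2afx (1.04). Of the synaptonemal complex genes Sycp1 had 4192 and 4759 counts (0.25) and Sycp2 17483 and 10184 (−0.71). Of 22 genes of meiotic division Ccnb3 was called higher (91 and 256, 1.54) and Aurkb (369 and 149, −1.23) and Espl1, separase (1755 and 762, −1.13), lower. None of 14 genes of p53, apoptosis and DNA damage was called: Trp53 had 120 and 128 counts (0.16), and values ran from −0.63 for Diablo to 0.90 for Xiap.

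Chromatin regulators lay close to the overall median. Of 45 genes of histone methylation 3 were called higher and 4 lower, with a median of −0.02. These are 6.67% and 8.89%, against 10.02% and 12.5% of all genes with a symbol. The lower ones were Kdm4d, a testis demethylase (734 and 203, −1.77), Phf2 (1316 and 402, −1.63), Setd1b (1889 and 743, −1.27) and Kmt2d (10815 and 4425, −1.22). The higher ones were Suv39h2, the testis form of a heterochromatin methyltransferase (129 and 282, 1.19), its X-linked relative Suv39h1 (104 and 213, 1.09) and the X-linked Kdm6a (223 and 453, 1.09). Of 51 genes of DNA methylation and histone acetylation Tet3, an oxidase of 5-methylcytosine (228 and 901, 2.04), was among those called higher, and Sirt7 (355 and 119, −1.49) was called lower. The median of this list was −0.09. With total counts 7 of 28 lists, those of chromatin, meiosis, transcription control, head shaping and p53, had a median of the other sign, because it lay within 0.18 of 0.

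The deepest ratios outside these lists were found among protein-coding genes with 1000 counts in the higher library. After Sept12 and Izumo4 the lowest were Dnm1, a dynamin (1142 and 205, −2.39), Mif4gd, a partner of the histone stem-loop binding protein in translation (4076 and 753, −2.36), Lrrc71 (18302 and 3678, −2.24), Dusp15 (−2.23), Mapk15, a kinase of cilia (4043 and 820, −2.23), Fbn2 (−2.16), Dnhd1, a dynein-like gene (11512 and 2473, −2.15), and Fbxw5 (−2.14). Each was called lower in PA as well. Beside Tnp2, Hspa1l, H1fnt and Prm2 the highest were Ptprb, a phosphatase of blood vessel cells (287 and 1355, 2.30), BC048507 (301 and 1057, 1.88), Bmpr2, a receptor for bone morphogenetic proteins (452 and 1566, 1.86), 4930407I10Rik (709 and 2346, 1.80), the kinesin Kif2b (392 and 1248, 1.74) and Ms4a14 (862 and 2674, 1.70). Among genes of other classes at that depth AC091683.2, a lincRNA, had 351 counts in wild-type RO, 2356 in knockout RO, 165 in wild-type PA and 2508 in knockout PA (2.81), and 1700007E05Rik, a transcribed pseudogene, had 436, 1136, 115 and 992 (1.45). The lowest were the pseudogene Gm5697 (2992 and 631, −2.17) and the lincRNAs 4933406C10Rik (−1.86), Gm31466, Gm6639 and Gm26799 (−1.84 to −1.82).

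By gene class, noncoding genes were called lower more often than protein-coding genes. With all classes together 3.31% of the 2901 genes with 1000 counts in the higher library were called higher, 14.2% lower and 17.5% either way. Of 134 antisense genes 49 were called lower and 5 higher, with a median of −0.58 in RO and −0.13 in PA. Of 224 lincRNAs 62 were lower and 19 higher (−0.39), and of 171 processed pseudogenes 49 and 15 (−0.42). Protein-coding genes had 639 lower and 614 higher among 6111, with a median of −0.05. The kit of the series is not stated to keep strand in the counts, so reads of an antisense gene and of its partner cannot be told apart. Abundant nuclear RNAs lay near the overall median in RO: Malat1 had 250306 and 220579 counts (−0.11) and Neat1 20461 and 17471 (−0.16), whereas in PA they had 912335 and 303065 (−1.47) and 122259 and 46430 (−1.28).

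Other large families by symbol are read against the 10.02% higher and 12.5% lower of all genes with a symbol, and of the following the solute carriers had the highest share of lower calls. Of 206 Zfp genes 13 were called higher and 17 lower (median −0.11, and above 0 with total counts), of 107 solute carriers 9 higher and 24 lower (22.4% lower, −0.25), and of 81 Ccdc genes 4 higher and 10 lower (−0.37). Of 41 genes with a heat shock family symbol 6 were higher and none lower (0.29). The shortest genes were called most often in either direction. The fifth of genes with the shortest span on the chromosome (0.141 to 8.65 kb) had a median of −0.21, with 12.7% called higher and 19.7% lower, and the fifth with the longest span (86.3 kb or more) a median of 0.03, with 9.88% called higher and 5.94% lower. The medians of 2 groups ran against this order: axoneme genes had a median span of 65.9 kb and a median ratio of −0.63, and round spermatid markers 3.33 kb and 1.36, where all genes with a symbol had 28.5 kb.

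The calls of RO were set beside the PA ratios of the same genes, which come from other libraries. Of the 1594 genes called higher in RO 660 were also called higher in PA and 51 lower. Of the 1747 called lower in RO 806 were called lower in PA and 70 higher. The median PA ratio was 0.81 and −0.93. The shares of all genes called in PA are not given here, so these counts have no background to be read against. Smcp, Cd93, Kdr, Eif2ak3, Xbp1 and Tet3 were among the genes called in RO and not in PA.

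The peak lists were then compared within RO. Of the 9418 wild-type peaks 5260 overlapped a knockout peak, and of the 8846 knockout peaks 5207 overlapped a wild-type peak. The peaks of either list without a counterpart differed in where else they were found. A false discovery rate under 0.05 held for 75.4% of such wild-type peaks and 93.4% of such knockout peaks. It held for 96.0% of the shared wild-type peaks, and no such limit was applied to the shares in this paragraph. Of 4158 wild-type peaks without a knockout RO counterpart 69.8% were in neither PA list, whereas of 3639 knockout peaks without a wild-type RO counterpart 28.7% were in neither, 66.7% overlapped a knockout PA peak and 36.9% a wild-type PA peak. Coding sequence held 58.1% of the shared wild-type peaks, 39.3% of the wild-type-only peaks and 47.1% of the knockout-only peaks. The 5′ untranslated region held 2.55% of the shared wild-type peaks, 5.44% (4.79% to 6.17%, Wilson) of the wild-type-only and 3.76% (3.19% to 4.43%) of the knockout-only peaks.

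Peak gain and loss were counted on the 5961 genes with a symbol and 100 counts in both RO libraries. Of these, 54.5% had a peak in both lists, 17.0% in the knockout list only and 17.8% in the wild-type list only. Symbols were taken from the RO and PA peak lists, so genes without any peak have no symbol and are left out of these shares. Of the genes called higher in input 92 of 368 had a knockout-only peak and 12.2% a wild-type-only peak. Genes called lower (595) had 10.9% and 27.2%. Peaks of a genotype alone were thus more frequent where its input was higher. Among all 10415 genes with 100 counts in both libraries, with or without a symbol, 9.72% had a peak in the knockout only, 10.2% in wild type only and 31.2% in both. Among the 5752 of them with an input log2 ratio within 0.5, 561 had a peak in the knockout only and 551 in wild type only, and at that input 63.1% of the wild-type and 63.9% of the knockout peaks were shared.

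**Figure D5:**
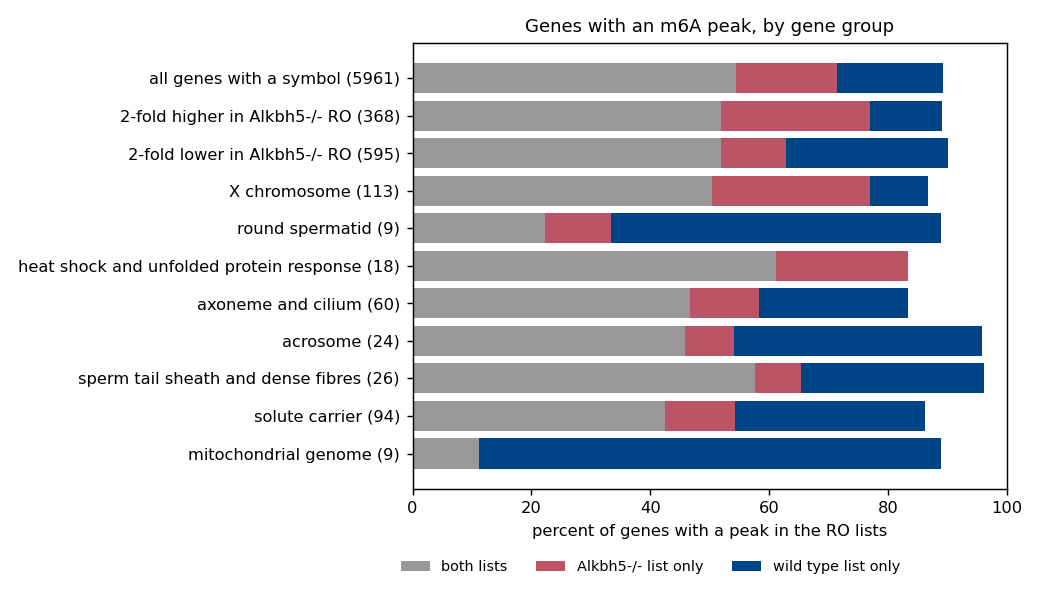
Percent of genes with a peak in both RO lists (grey), in the knockout list only (red) and in the wild-type list only (blue), for genes with 100 counts in both RO libraries; the number of genes is in brackets. All genes with a symbol have 17.0% knockout only and 17.8% wild type only; the acrosome list has 41.7% wild type only, the X chromosome 26.5% knockout only, and the mitochondrial genome 7 of 9 genes wild type only.

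Gene groups differed in which list held their peaks. Of 24 acrosome genes 10 (41.7%) had a peak in wild type only and 2 in the knockout only, where the background was 17.8% and 17.0%. These included Acr (2 peaks in wild type, 0 in the knockout), Acrv1 (1 and 0), Adam3 (1 and 0), Izumo4 (1 and 0) and Hyal5 (1 and 0). Of these Hyal5 was called higher in input, so its peak was missing from the library with more counts. The same held in the tail list, in which 8 of 26 genes had a peak in wild type only. Akap4 (1 and 0 peaks), Odf1 (2 and 0) and Smcp (2 and 0) were called higher in input and had no peak in the knockout list, and the same was true of Tnp2 (2 and 0). Of 9 round spermatid markers 5 had a peak in wild type only and Actl7b in the knockout only (0 and 2 peaks). Cylc1 had 0 and 2 peaks, but with 46 wild-type input counts it was outside the genes counted here. Prm2 had no peak in either list.

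Axoneme genes had a peak in wild type only for 15 of 60 and in the knockout only for 7. In the list of heat shock and the unfolded protein response, 11 of 18 genes had a peak in both lists, 4 in the knockout only and 0 in wild type only. Canx, Hsp90b1 and Pdia3 were among the 4 (0 and 1 peak each), and Hspa1a had 1 and 3 peaks, Hspa1b 1 and 2. Of 113 X-linked genes 30 (26.5%) had a peak in the knockout only and 11 in wild type only, and their peaks numbered 97 in wild type and 149 in the knockout. Solute carriers showed the other direction, with 30 of 94 genes (31.9%) in wild type only and 11 in the knockout only, and so did Tmem genes with 13 of 37 and 7.

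The mitochondrial genome, whose transcripts are made inside the organelle, gave an unequal pair of lists. Of 9 measured genes 8 had a peak in wild-type RO and 1 in knockout RO, with 11 peaks against 1. In PA 7 had a peak in wild type and 2 in the knockout. The input counts did not follow: mt-Nd5 had 8851 counts in wild-type RO and 9653 in knockout RO with 2 and 0 peaks, mt-Nd1 had 12550 and 10278 with 2 and 0, and mt-Nd6 had 2798 and 3546 with 1 and 0. Only mt-Nd2 had a peak in each RO list. The median input ratio of these genes was −0.22, and mt-Rnr2 was the only called one (331 and 131, −1.25).

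Most genes of histone methylation and of the zinc finger and Kelch families had a peak in both lists. Of 45 histone methylation genes 37 (82.2%) had a peak in both lists, of 27 Zbtb genes 26, and of 18 Kelch genes 16. Of 176 Zfp genes 120 (68.2%) had a peak in both lists. These shares compare with 54.5% of the 5961 genes with a symbol and 100 counts in both RO libraries. Among all 10415 genes with such counts, with or without a symbol, the share was 31.2%. Cytosolic ribosomal protein genes, which are short, had a peak in both lists for 4 of 22. Kmt2a had 10 peaks in each list and Kmt2d 9, although Kmt2d was called lower in input. These counts take any peak of a gene and do not show that the same sites were found. Over all genes the share with a peak in both lists also rose with depth, from 17.2% at 100 to 200 counts in the lower library to 55.3% at 1600 or more.

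The number of peaks per gene was compared as well. Of all genes with a peak and 100 counts in both libraries 1678 had more peaks in the knockout, 1886 fewer and 1762 the same number, where the first 2 counts include genes with a peak in 1 list only. Muc16, a mucin gene, had 28 peaks in wild type and 12 in the knockout with 8292 and 3592 counts. Fsip2, a fibrous sheath gene, had 19 and 7 with 36709 and 30468 counts, and the noncoding RNA Kcnq1ot1 had 23 and 11 with 10468 and 9792. For Fsip2 and Kcnq1ot1 the input ratio was within 0.5, at −0.20 and −0.02. In the other direction Tnrc18 had 3 and 10 peaks (4740 and 3373 counts), Pclo, a synaptic scaffold gene, 5 and 11 (384 and 462), and Amer2 5 and 11 (439 and 624).

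Single peaks were named where the gene had a steady input count. In the authors' deposited table for wild-type RO the highest fold without a counterpart among 536 such peaks was 147, in coding sequence of Ube2u, a ubiquitin-conjugating enzyme (chr4:100549793-100550147, + strand, 413 and 369 input counts). It was followed in the authors' deposited table by 140 in Dhtkd1, a mitochondrial dehydrogenase (chr2:5898803-5902412, − strand, 297 and 212), and 112 in the 3′ untranslated region of Rasa1, a Ras inhibitor (chr13:85215620-85215950, − strand, 1414 and 1470). The peaks of Ube2u and Rasa1 were also found in both PA lists, so they were missing only from the knockout RO list. Those of Tmc1, Best1, Ftl1, Ccdc73 and Pofut1, with folds from 99.5 to 92.8 in the authors' deposited table, were in neither PA list. In the authors' deposited table for knockout RO the highest fold among 603 peaks was 147, in the 3′ untranslated region of Nhlrc3 (chr3:53451997-53452207, − strand, 168 and 171 counts), then 100 in Pawr, a gene of cell death control (chr10:108333063-108411991, + strand, 150 and 180). The fifth was Nfe2l2, the regulator of the oxidative stress response, with a fold of 86.8 in the authors' deposited table (chr2:75676619-75676917, − strand, 200 and 249). All 10 of these knockout peaks were in the knockout PA list and 8 also in the wild-type PA list, so that most were absent from wild-type RO alone. Among shared peaks the fold of Tnrc6c, a scaffold of microRNA silencing, was 1290 in the authors' deposited table for wild type and that of Ppp1r2-ps3 was 396 in the authors' deposited table for the knockout.

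A few peaks lay within the promoter windows, so that their sequence could be read. Parts of at least 100 bases of 31 wild-type and 23 knockout peaks with a false discovery rate under 0.05 fell into a window of their gene, where the annotated exon begins before the RefSeq start of that window. The 31 parts held 5107 bases and the 23 held 3768, so on average they were shorter than a window. Shares of parts and of whole windows that hold given letters are therefore not comparable. The letters GGACT, the core in which m6A is most often placed, occurred on the RNA strand in 7 of the 31 and 3 of the 23, and in 26.1% of all windows. Up to 3 with the highest fold per list are shown in 30 bases, with GGACT in capitals, from chr11:26387027-26387056 (+), chr1:179960536-179960565 (+), chr10:67570020-67570049 (−), chr3:84815349-84815378 (+), chr8:71367027-71367056 (+) and chr8:83608328-83608357 (+).
Fancl: cgtcaggcctgtGGACTtgtgagtgatctt
Cdc42bpa: ctttgccgcggaGGACTcgcccaggcgcta
4930563J15Rik: cctggctttctgGGACTccgaagtcccagg
Fbxw7: ggctcctcggcgGGACTccaggagttctcg
Use1: cagggcctacatGGACTacagagactctgc
Dnajb1: ggccatgggcaaGGACTactatcagacgct
The peak of Fancl, a ubiquitin ligase of DNA crosslink repair, was in both RO lists and those of Cdc42bpa (1385 and 2414 counts) and 4930563J15Rik in the wild-type list only. Fbxw7, which selects proteins for degradation, had 1355 and 1308 counts and this peak in the knockout list only, as did Use1, a vesicle fusion gene (137 and 171 counts). The peak of Dnajb1, a heat shock cochaperone, was shared and its input equal (814 and 776 counts). Which adenosine of a peak carries the mark cannot be read from these lists.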

How the data were processed

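Per the labels' protocols, TRIzol-extracted total RNA was cut to 100 to 200 nt, m6A fragments were pulled down with an antibody, and libraries were built with the NEBNext Ultra II RNA kit. Per the submitters' processing notes cutadapt 2.5, HISAT2 2.1.0 and HOMER 4.10.4 were used, with build mm10; the counting tool, the peak caller and their settings are not given in the sources used here. The authors deposited whole-number gene counts of the input libraries, which are not normalized, and peak lists. A peak carries, per the file headers, a fold, which is a ratio of immunoprecipitated over input signal, and a log10 false discovery rate; the fold was used only within a list. Counts of immunoprecipitated libraries were not analysed here. Of the table's columns 0 belonged to no sample.

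TMM factors were used for scaling the counts (edgeR 4.0.16, R 4.3.3; 0.953 for wild-type and 1.08 for knockout RO) and turned into log2 ratios with a prior count of 2; no test was run. Ratios were restricted to genes with 100 counts in either RO library. Symbols come from the peak lists, which cover 8733 of 53465 identifiers. The RefSeq table (GRCm38.p6) gave spans for 94.1% of the 6886 genes with a symbol. Intervals are exact binomial for ratios and Wilson for shares (95%), and PCR reads without molecular identifiers are not independent molecules, so they cover counting error only. Peaks were compared by exon blocks on the same strand with an overlap of 1 bp. Scripts were tested on simulated data. Python 3.11.15 with numpy 2.4.6 and pandas 2.3.3 was used.

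The gene lists, families and rules were chosen with earlier results of these data known. Named genes were the 10 highest and 10 lowest protein-coding and the 5 highest and 5 lowest other genes with 1000 counts in the higher RO library, up to 3 highest and lowest members of each list, the extremes of families, the 10 peaks of highest fold without a counterpart in genes with an input log2 ratio within 0.5, and the 5 highest shared peaks; other list members named beside them were chosen after their values were seen. Of 444 genes in 19 function lists 16 stand in more than 1 list.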

Additional observations from a re-analysis of the deposited data

Results flagged for a closer look

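Esam, an adhesion gene of blood vessel cells and a member of the endothelial list, was the only gene of the function and marker lists called in opposite directions in the cell fractions. Its log2 ratio of knockout over wild type was 1.50 in RO (100 counts in wild type and 272 in the knockout) and −1.12 in PA (290 and 122). The other endothelial markers did not share this reversal: Cd93 had 3.90 in RO and 0.75 in PA, and Kdr 2.31 and 0.05. The difference between the fractions was not tested, and each ratio compares 1 library with 1 library.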

How the results depend on the processing

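The counts of 1594 genes called higher and 1747 called lower depend on the count minimum, since fewer or more genes are then compared: with no minimum they were 8491 and 5698, with 1000 counts in either library 96 and 412, and for genes with a symbol 690 and 858. DESeq2 size factors, TMM over the RO inputs alone and a prior count of 0.5 left the calls at 1594 to 1615 higher and 1738 to 1767 lower. Of 499 named list members 138 were past 2-fold; 130 remained so with total counts and 13 others joined them. The share of wild-type peaks with a counterpart was 40.0% with a reciprocal overlap of 50%, 61.1% at a false discovery rate under 0.05 and 52.1% at a fold of 5 or more; that of knockout peaks was 42.6% with the reciprocal overlap. Genes with a knockout-only peak numbered 338 with 500 counts in both libraries and 561 with an input log2 ratio within 0.5, and those with a wild-type-only peak 381 and 551, again because fewer genes were compared. At a false discovery rate under 0.05 in both lists the knockout-only genes numbered 1096 and the wild-type-only genes 911. At a fold of 5 or more they numbered 882 and 1148, against 1012 and 1064 without a limit. No paired analysis was possible because each group had 1 library, so that no replicate could be left out either. Genes without a symbol could not be placed in any function.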

Other observations

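Beyond the groups above, several families held members of opposite direction, which are given as values. Among septins Sept12 had 6518 and 954 counts in wild-type and knockout RO (−2.70) and Sept8, a septin of many tissues, 164 and 301 (0.94). Among kinesins Kif18b, which shortens microtubules in mitosis, had 315 and 115 (−1.37) and Kif2b 392 and 1248 (1.74). Among histone genes H2afy3 had 270 and 85 (−1.57) against 2.20 for H1fnt. Among F-box genes, whose products choose targets for ubiquitin ligases, Fbxw5 had 2958 and 635 (−2.14) and Fbxo32 26 and 105 (2.00). Among solute carriers Slc45a3 had 149 and 10 (−3.59) and Slc30a4, a zinc transporter, 130 and 795 (2.67).

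Genes of protein synthesis in the mitochondrion and cytoplasm lay close to 0. Of 23 cytosolic ribosomal protein genes 2 were called higher and 2 lower, with a median of 0.12 in RO and −0.57 in PA, and the acidic protein gene Rplp0 was lowest (448 and 176 counts, −1.27). Of 14 mitochondrial ribosomal protein genes 2 were called higher and none lower (0.25). Of 23 translation initiation genes 3 were higher and 1 lower (0.11), with Eif4ebp2, an inhibitor of cap-dependent initiation, highest (126 and 307, 1.34) and Eif2ak2, the kinase that senses double-stranded RNA, lowest (653 and 236, −1.39). These shares compare with 10.02% and 12.5% of all genes with a symbol.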
